A study of Mus musculus with 2 samples.

Results

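The regulators of G-protein signalling described here are Rgs1, Rgs2, Rgs3, Rgs10, Rgs14, Rgs16, Rgs18 and Rgs19, 8 of 18193 genes named on the array. They were chosen by gene symbol: every probe set whose platform annotation gives 1 of these symbols and no other was taken, which gave 18 probe sets. RNA of naive gamma/delta T cells, labelled CD44-, was compared with RNA of naive CD8+ alpha/beta T cells. Both were enriched by negative selection from C57BL/6 lymph nodes, and the labels name no genotype beyond the strain and no treatment, age or number of mice. Each went onto 1 Affymetrix MOE430 2.0 array, where a probe set is a group of short oligonucleotides that reads 1 transcript or several similar ones. No group has a replicate array, so no value below has an SD or a p-value, and each ratio compares these 2 preparations.

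A G protein-coupled receptor switches on a G protein by loading its alpha subunit with GTP, and the alpha subunit switches itself off by hydrolysing that GTP. RGS proteins bind the active alpha subunit and speed up this hydrolysis, so they shorten signalling downstream of the receptor. In lymphocytes the receptors concerned include those for chemokines and sphingosine 1-phosphate, which guide entry into, movement within and exit from lymph nodes.

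The values are MAS5 signals, which are linear intensities in scaled units. A signal of 243.3, the higher of the medians of both arrays over probe sets that are not controls, was used as a floor. The log2 ratios, gamma/delta over alpha/beta, were computed after lower signals had been set to the floor. Where only 1 array exceeded the floor the ratio is a lower limit on the difference, given as at least so many fold, and where neither did no ratio is given. A ratio of 2-fold or more was called. The gamma/delta and alpha/beta medians were 243.3 and 242.1. Trgv4, a gamma chain segment, read 12522 in gamma/delta cells against 170.4 in alpha/beta cells, and Cd8a, a chain of the CD8 coreceptor, read 731.1 and 8852, in the direction of the labels.

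Rgs1 and Rgs2 were higher in gamma/delta cells and Rgs10 was lower at the edge of the 2-fold call, while the other 5 members did not reach 2-fold. Across all genes with a ratio, 5.82% were called higher and 3.93% lower, against 2 and 1 of the 8 members. By probe set, 12 of the 18 had a ratio, of which 7 were bounds. The 4 probe sets called higher belonged to 2 genes, and 1 probe set was called lower. Among all probe sets with 1 symbol and a ratio, 5.2% were called higher and 4.37% lower. The median log2 ratio over the members was 0.13, beside 0.03 over all 11914 genes with a ratio. In such bulk preparations, fewer cells that express a gene and less of its RNA per cell cannot be told apart.

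**Figure D1:**
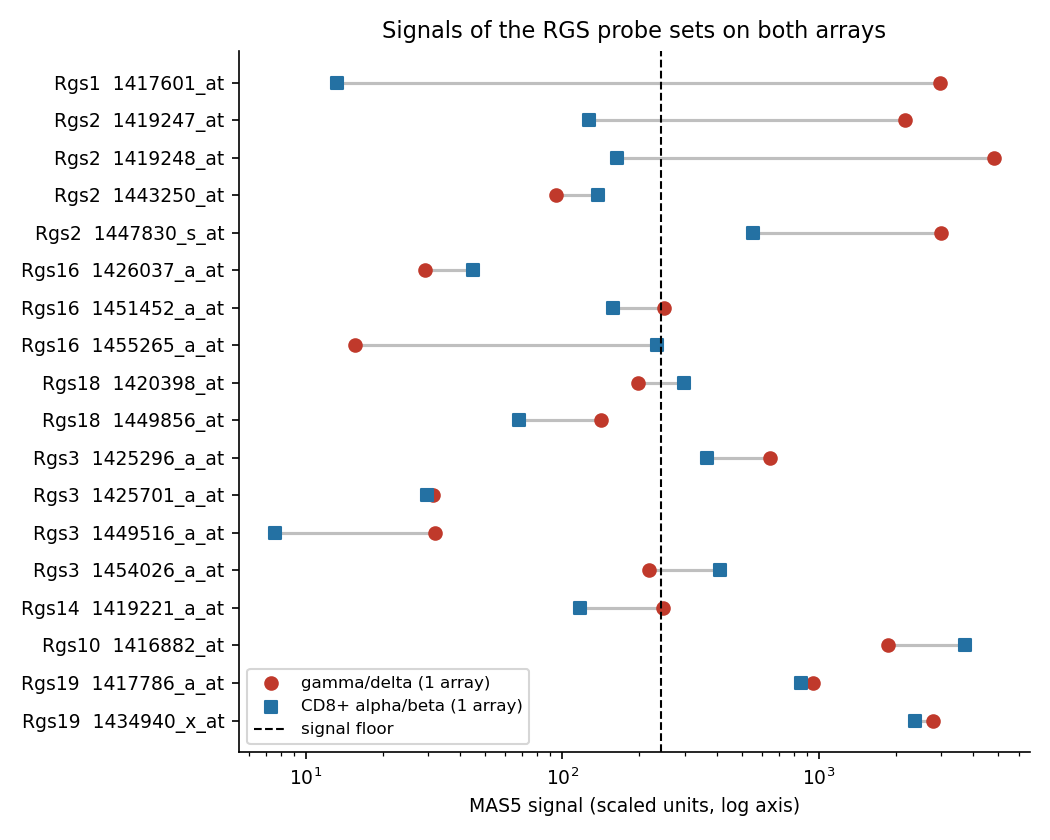
MAS5 signal (log axis) of each of the 18 RGS probe sets on the gamma/delta array (circles) and the CD8+ alpha/beta array (squares), 1 array each, with the floor of 243.3 as a dashed line. Rgs1 and 3 of the 4 probe sets of Rgs2 lie far to the right for gamma/delta, and 6 probe sets lie left of the floor on both arrays.

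Rgs1 damps signalling through inhibitory and Gq-type alpha subunits and is known for restraining chemokine responses of lymphocytes. Its 1 probe set, 1417601_at, read 2970 in gamma/delta cells but 13.2 in alpha/beta cells. The alpha/beta signal lay far under the floor, so the gamma/delta value of Rgs1 was at least 12.2-fold higher, a log2 ratio of at least 3.61. The bound moves with the floor: it was 4.52 on the log2 scale for a floor at the 30th percentile of signals and 2.73 for 1 at the 70th, above the 2-fold call in both cases.

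Rgs2 acts mainly on Gq-type alpha subunits. The probe set used for the gene, 1447830_s_at, which has the highest mean log2 signal of its 4, read 3004 in gamma/delta cells against 555.2 in alpha/beta cells, a 5.41-fold difference (log2 ratio 2.44). This was the only probe set of Rgs2 above the floor in alpha/beta cells. Probe set 1419248_at read 4806 and 163.9, which puts Rgs2 at least 19.7-fold higher. Probe set 1419247_at read 2159 and 126.6, which puts it at least 8.87-fold higher. The fourth, 1443250_at, lay under the floor on both arrays, at 94.9 and 138.2, and gives no direction. The 3 probe sets with a ratio thus had one direction and differed in size, from 2.44 to at least 4.30 on the log2 scale. For comparison, the pooled SD of the log2 ratio between probe sets of one gene was 0.50 over the 3317 genes for which 2 or more exceeded the floor on each array. Names that end in _s_at mark probe sets that can read several transcripts. With probe sets ending in _s_at, _x_at or _a_at left out, the value of Rgs2 was the larger bound. Of the genes with a ratio, 42 had a larger one than the 5.41-fold of Rgs2, with bounds taken at their value.

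Rgs10, a small protein that acts on inhibitory alpha subunits, went the other way. Its 1 probe set, 1416882_at, read 1857 in gamma/delta cells against 3722 in alpha/beta cells, both well above the floor. This is a 2.00-fold lower signal in gamma/delta cells (log2 ratio -1.003), right at the threshold. After quantile normalization the log2 ratio was -0.98 and after an intensity-dependent loess it was -0.95, both short of 2-fold. The call thus depends on the scaling, while the direction was the same under each scaling tried. The other alternatives could not change the ratio of Rgs10. It has 1 probe set, which has none of the endings _s_at, _x_at and _a_at, and both signals exceed every floor tried. Of the genes with a ratio, 465 lay further towards alpha/beta.

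**Figure D2:**
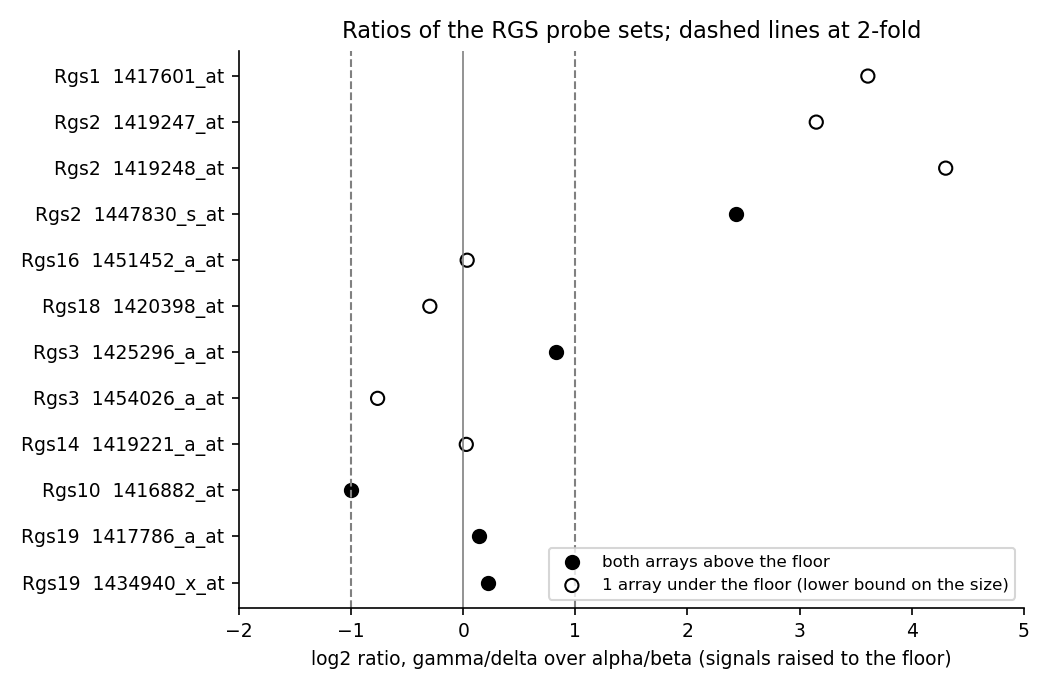
Log2 ratio (gamma/delta over alpha/beta) for the 12 RGS probe sets with a ratio. Filled points have both arrays above the floor, open points are bounds, and dashed lines mark 2-fold: the 3 points of Rgs2 and the 1 of Rgs1 lie right of it, and Rgs10 lies on the line at -1.003.

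The sequences before the transcription starts of Rgs2 and Rgs10 are shown because these are the called members with an entry in the RefSeq promoter table used (GRCm38.p6). The table held windows for 5 of the 8 members: Rgs2, Rgs3, Rgs10, Rgs16 and Rgs19. Each sequence is the 250 bases before the annotated start, 5′ to 3′ on the gene's strand. Capitals mark matches on either strand to 4 motifs: AP-1 (TGANTCA), the CRE core (TGACG), the GC box (GGGCGG) and the TATA box (TATAAA). Rgs2 lies on the minus strand at chr1:144004150-144004399 and Rgs10 on the minus strand at chr7:128418173-128418422.
Rgs2: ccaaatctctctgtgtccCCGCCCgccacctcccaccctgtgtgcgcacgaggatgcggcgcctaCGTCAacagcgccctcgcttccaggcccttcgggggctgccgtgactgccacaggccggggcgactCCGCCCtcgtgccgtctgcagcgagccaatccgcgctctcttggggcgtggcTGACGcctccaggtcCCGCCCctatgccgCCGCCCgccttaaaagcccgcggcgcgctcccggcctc
Rgs10: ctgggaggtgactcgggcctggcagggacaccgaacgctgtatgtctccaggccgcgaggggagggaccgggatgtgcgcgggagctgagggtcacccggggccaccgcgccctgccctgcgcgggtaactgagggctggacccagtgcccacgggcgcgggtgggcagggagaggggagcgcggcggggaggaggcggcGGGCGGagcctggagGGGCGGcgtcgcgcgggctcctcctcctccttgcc
The Rgs2 window held 4 GC boxes and 2 CRE cores, which start 185 and 67 bases before the transcription start. The Rgs10 window held 2 GC boxes, 50 and 35 bases before the start, and no CRE core. Neither held an AP-1 or TATA box match. Over 27025 genes, each by its first listed window, 32.9% held a GC box, 17.9% a CRE core, 13.0% a TATA box and 6.87% an AP-1 match. The windows of Rgs16, Rgs3 and Rgs19, genes that were not called, held no CRE core or AP-1 match. Matches are letters in a window, and overlapping matches were each counted.

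Rgs3, which exists in several isoforms, had probe sets that disagreed. Probe set 1425296_a_at, used for the gene, read 648.0 in gamma/delta cells against 365.4 in alpha/beta cells, 1.77-fold higher in gamma/delta (log2 ratio 0.83). Probe set 1454026_a_at read 218.5 and 413.2, at least 1.70-fold lower in gamma/delta (log2 ratio -0.76). The other 2, 1425701_a_at with 31.5 and 29.6 and 1449516_a_at with 31.9 and 7.60, lay under the floor on both arrays. No direction can be given for Rgs3 as a gene, and with its probe sets averaged it lay under the floor on both arrays.

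Rgs19, also known as GAIP, acts on inhibitory alpha subunits and was read by 2 probe sets, each above the floor in both preparations. Probe set 1434940_x_at read 2776 in gamma/delta cells against 2377 in alpha/beta cells (log2 ratio 0.22), and 1417786_a_at read 945.0 and 854.8 (log2 ratio 0.14). The 2 ratios differed from each other by less than the pooled SD between probe sets of one gene, 0.50. That SD does not measure variation between preparations. Rgs19 was the 1 uncalled member whose signals lay above the floor on both arrays by every probe set.

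Rgs14, Rgs16 and Rgs18 stayed near or under the floor, and no difference of 2-fold was detectable at these signals. Rgs14, a scaffold with an RGS domain, Ras-binding domains and a GoLoco motif, read 248.0 in gamma/delta cells against 117.2 in alpha/beta cells on 1419221_a_at. The gamma/delta signal was barely above the floor, so the bound was only 1.02-fold. Rgs16, known as a gene induced in activated T cells, read 249.4 and 157.1 on 1451452_a_at, a bound of 1.02-fold. Its other probe sets lay under the floor on both arrays, 1426037_a_at at 29.1 and 45.1 and 1455265_a_at at 15.5 and 233.0. Rgs18, best known from platelets and their precursors, read 197.8 and 299.2 on 1420398_at, at least 1.23-fold lower in gamma/delta. Its other probe set, 1449856_at, read 141.6 and 67.8. Signals under the floor carry no order, and these 3 bounds are too small to set a direction.

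**Figure D3:**
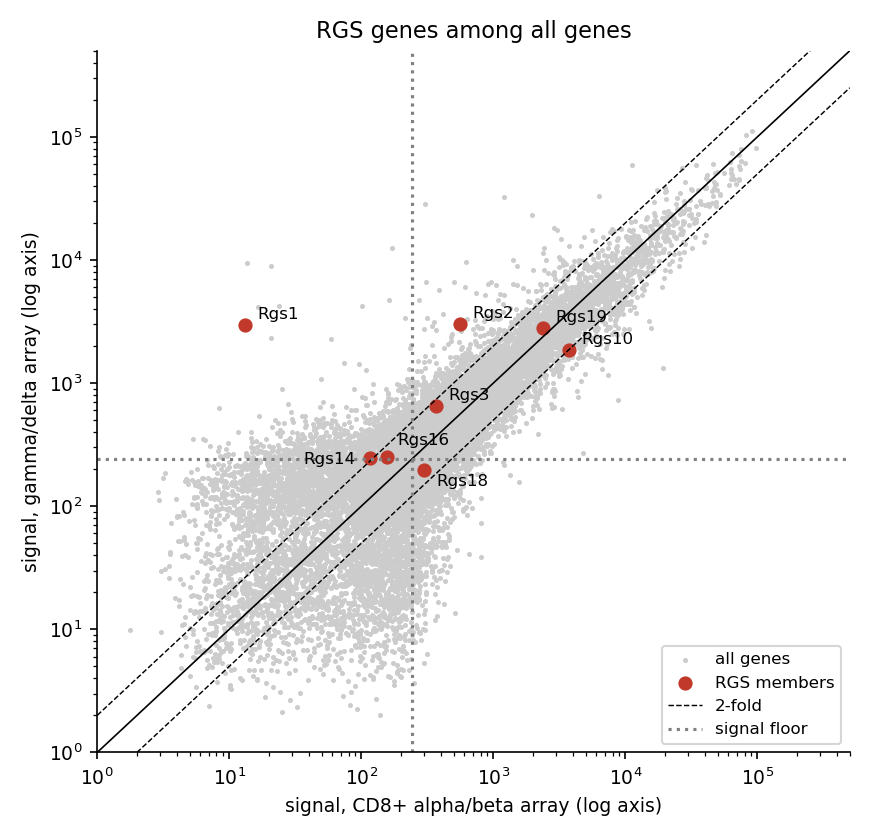
Signal of each gene on the gamma/delta array against the alpha/beta array (both axes log), with the 8 RGS members in red, the 2-fold lines dashed and the floor dotted. Rgs1 and Rgs2 lie above the upper 2-fold line, Rgs10 lies on the lower one, and Rgs14, Rgs16 and Rgs18 lie by the corner where both floors meet.

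Of the 8 members, 4 lie on chromosome 1: Rgs1, Rgs2, Rgs16 and Rgs18. In the RefSeq gene table (GRCm38.p6) the order of protein-coding genes there runs Rgs2, Rgs13, Rgs1, Rgs21, Rgs18, a run of 5 RGS genes with no other protein-coding gene between them. Along this run Rgs2 and Rgs1 were called higher in gamma/delta cells. Rgs13, between them and known from germinal centre B cells, lay under the floor on both arrays, at 157.2 and 91.4. Rgs18 at the far end had a bound of 1.23-fold, and Rgs21 had no probe set annotated with its symbol alone. These values thus give no direction for the other genes of the run.

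The wider RGS family gave few signals. Of 18 other family genes and binding partners listed, 15 had a probe set, and 7 of these were below the floor throughout. Of the 8 with a ratio, 0 reached 2-fold (median log2 ratio -0.17). Over all genes 5.82% were called higher and 3.93% lower, so 0 among so few is no result about the family. The ratios of these 8 ran from -0.73 for Rgs5, a bound, to 0.28 for Rgs7, also a bound. Axin2, an RGS-domain scaffold of the beta-catenin destruction complex, read 841.4 in gamma/delta cells against 1352 in alpha/beta cells (log2 ratio -0.68).

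By the probe sets used, the G-protein subunits on which RGS proteins act had lower ratios than Rgs1 and Rgs2. The same holds for most genes, since 11871 of the 11914 with a ratio lay below Rgs2. Of 15 alpha subunits measured, 11 had a ratio and 0 reached 2-fold, beside 5.82% called higher and 3.93% lower over all genes. The median log2 ratio of these subunits was -0.09. Gnai2, the main inhibitory alpha subunit of chemokine receptors in lymphocytes, read 1277 in gamma/delta cells against 1668 in alpha/beta cells (log2 ratio -0.39), and its 2 probe sets ran from -0.39 to 0.00. Gnai3 read 1967 and 2963 (log2 ratio -0.59). Gnaq, the Gq alpha subunit, read 1398 and 1155 (log2 ratio 0.28). Gna13 read 8685 and 10315 (log2 ratio -0.25), with 7 probe sets that ran from -0.25 to 2.32, so no direction can be given. Of the 10 beta and gamma subunits with a ratio, 1 was called: Gng10, a gamma subunit, read 1756 in gamma/delta cells against 606.6 in alpha/beta cells, 2.89-fold higher. Gnb1 read 13623 and 17446 on the probe set used (log2 ratio -0.36). Only 1 other probe set of Gnb1 gave a ratio, and it was also lower in gamma/delta cells (log2 ratio -0.39). Averaging over the probe sets of Gnb1, those without a ratio included, gave 0.42. Of 10 receptor kinases, arrestins, GoLoco proteins and chaperones with a ratio, 0 were called, and their ratios ran from -0.36 to 0.79.

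Among receptors that couple to these G proteins, 4 of 19 with a ratio were called higher in gamma/delta cells and 1 was called lower. The shares over all genes were 5.82% and 3.93%. The median log2 ratio of the receptors was 0.29. P2ry10, a receptor for lysophospholipids, read 9631 and 3449 (2.79-fold higher). Gpr65, an acid-sensing receptor, read 587.0 and 237.9 (at least 2.41-fold higher), and a floor at the 70th percentile made the bound 0.39 on the log2 scale. Ccr9, the gut-homing chemokine receptor, read 23333 and 1974 on the probe set used, while the log2 ratios of its 5 measured probe sets spanned -0.20 to 3.56. The fourth was Ccr6 (log2 ratio 1.07, or 0.32 under that higher floor). S1pr4, a sphingosine 1-phosphate receptor, read 950.2 and 2051 (2.16-fold lower). The homing receptors Ccr7, S1pr1 and Cxcr4 had log2 ratios of -0.56, 0.29 and 0.72, all under 2-fold.

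Of 24 effectors with a ratio, 2 were called higher and 1 was called lower, beside 5.82% and 3.93% of all genes. The median of the effectors was 0.15 on the log2 scale. Adcy3, an adenylyl cyclase, read 897.1 in gamma/delta cells against 413.9 in alpha/beta cells (2.17-fold higher), with probe sets from -0.43 to 1.12. Pde4b, a phosphodiesterase that degrades cyclic AMP, read 3626 and 8843 (2.44-fold lower), with probe sets from -1.29 to 0.82. Arhgef1, which has an RGS-like domain, read 1522 and 618.5 on the probe set used (2.46-fold higher), while its 2 probe sets, at -1.22 and 1.30, were opposed. None of these 3 therefore has a direction that all its probe sets share.

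**Figure D4:**
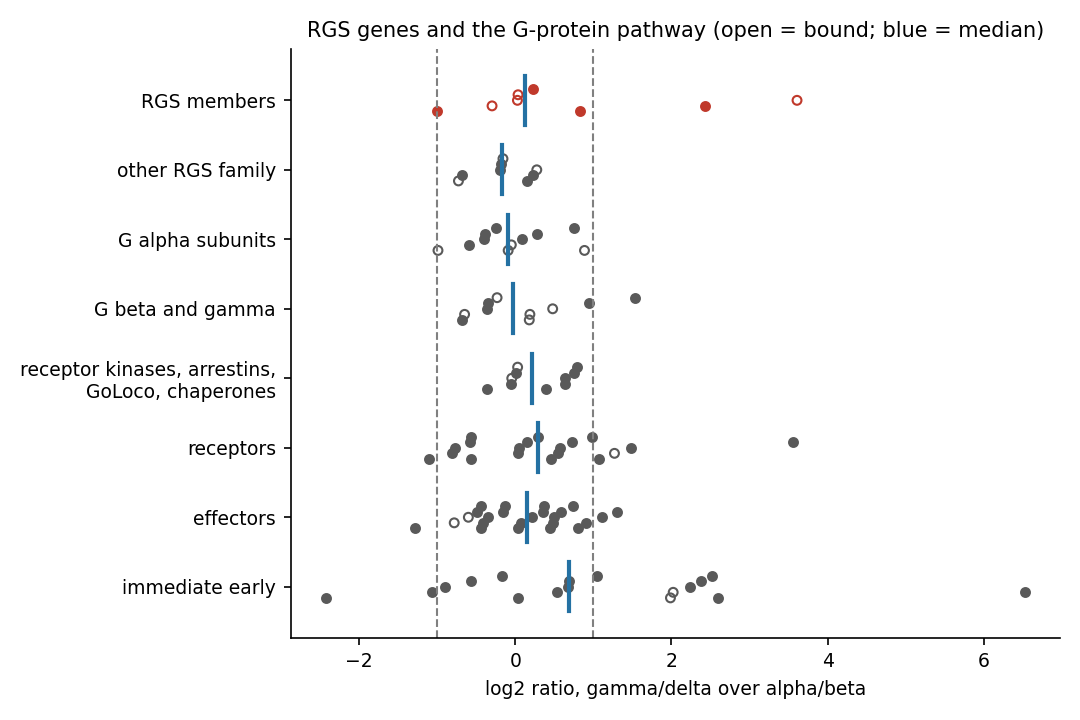
Log2 ratio (gamma/delta over alpha/beta) for each gene with a ratio, by list, with open points for bounds, blue bars for medians and dashed lines at 2-fold. Among the RGS and G-protein lists, Rgs1 (3.61), Rgs2 (2.44) and the receptor Ccr9 (3.56) lie farthest right, and the immediate early list extends to Fos at 6.53.

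Immediate early genes, which many cells transcribe within minutes of a stimulus or of handling, went both ways between the preparations. Of 17 with a ratio, 8 were called higher in gamma/delta cells and 2 were called lower, beside 5.82% and 3.93% of all genes. The median of the 17 was 0.69 on the log2 scale. Fos read 28220 in gamma/delta cells against 305.9 in alpha/beta cells, Jun 5185 and 860.7, and Egr1 17370 and 3026, whereas Egr2 read 977.5 and 2047, with both of its probe sets lower in gamma/delta cells (log2 ratios -1.08 and -1.07). Nr4a3 read 615.5 and 3319 on the probe set used, with another probe set at a log2 ratio of 0.20. The lowest gamma/delta signal of the list was 29.2, for Ier3, and the lowest alpha/beta signal was 83.2, for Myc. The summed signal of the 20 genes was 174259 in gamma/delta cells against 66186 in alpha/beta cells. The part of this difference in the ratios of Rgs1 and Rgs2 was not tested. RNA integrity, read from the 3′ over 5′ signal of control transcripts, also differed for actin (6.99 in gamma/delta, 3.12 in alpha/beta) but less, and the other way, for Gapdh (3.06 and 3.24) and the transferrin receptor (3.97 and 4.47). Its part in these ratios was not tested either.

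Markers of other cell types, some of which are known to express members, were also read. Of 7 measured platelet and erythroid markers 6 lay under the floor on both arrays, Pf4 among them at 198.5 and 112.7. The other, Gp1bb, read 272.4 in gamma/delta cells against 206.6 in alpha/beta cells. The summed signals were 732.3 and 842.2. Of 13 myeloid and dendritic markers 9 lay under the floor on both arrays, Lyz2 and Cd14 among them. S100a9 and Fcgr3 exceeded it on both, at 370.9 and 381.0 in gamma/delta cells against 498.4 and 349.4 in alpha/beta cells. Itgam (222.8 against 284.6) and Adgre1 (253.7 against 209.8) exceeded it on 1 array, and 0 reached 2-fold. The summed signals of this list were 2246 and 2062. Of 11 B cell markers 5 lay under the floor on both arrays, Cd79a and Cd74 among them. The other 6 had a median log2 ratio of 0.35, and 0 reached 2-fold. Of these 6, Ebf1 read 3331 in gamma/delta cells against 2650 in alpha/beta cells, Ighm 1025 against 789.0 and Ms4a1 858.2 against 616.0, with probe sets of Ighm from -0.28 to 1.21 on the log2 scale. The summed signals of all 11 were 6599 in gamma/delta cells against 5517 in alpha/beta cells. Of 7 natural killer cell markers 4 lay under the floor on both arrays, Ncr1 and Tyrobp among them. Gzma was called higher in gamma/delta cells, at 1442 against 73.4. Of 5 helper and regulatory T cell markers 3 lay under it on both, Cd4 and Foxp3 among them. Ctla4 exceeded the floor on both arrays, at 596.9 in gamma/delta cells against 607.9 in alpha/beta cells. Il2ra exceeded it in gamma/delta cells only, at 333.2 against 191.8 (at least 1.37-fold higher). The summed signals of this list were 1122 and 1220. The summed signals of the natural killer list were 2429 and 1064, of which Gzma gave 1442 and 73.4. The other natural killer cell markers above the floor were under 2-fold: Klrg1 read 387.6 in gamma/delta cells against 267.4 in alpha/beta cells, and Eomes 351.0 against 278.9. The part of other cell types in the ratios was not tested.

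**Figure D5:**
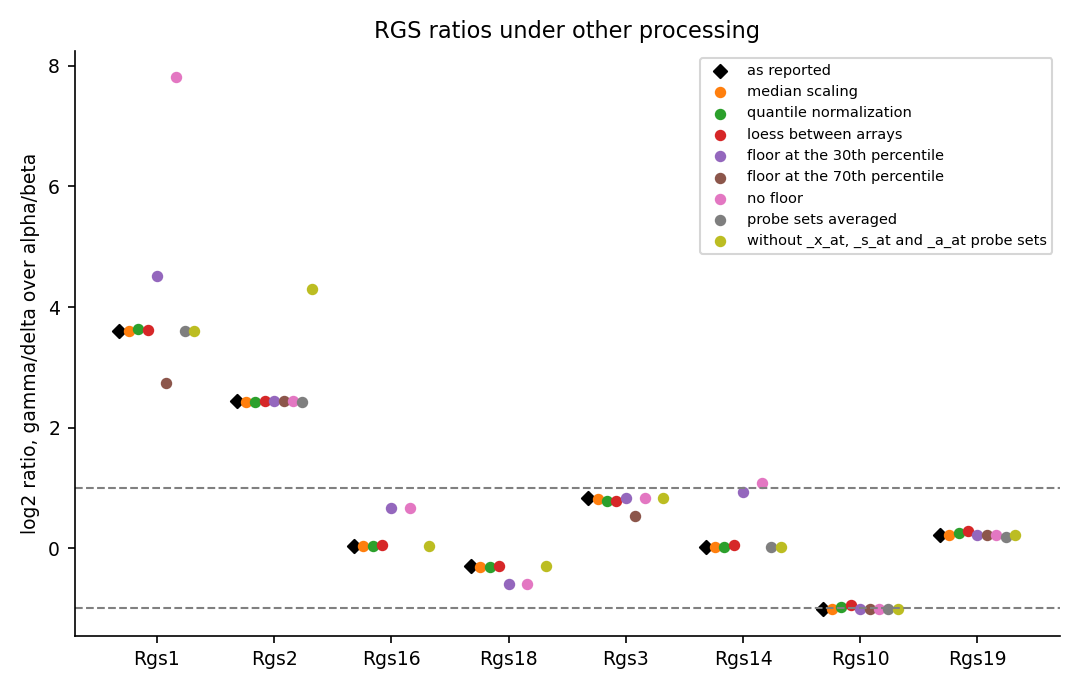
Log2 ratio (gamma/delta over alpha/beta) of the 8 RGS genes as reported (diamonds) and under 8 alternatives (circles), with dashed lines at 2-fold. Rgs1 ranges from 2.73 to 7.81 and Rgs2 from 2.43 to 4.30, both above the line in each setting, while Rgs10 stays within -1.01 and -0.95.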

How the data were processed

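RNA of 1 gamma/delta and 1 CD8+ alpha/beta T cell preparation was measured on 1 array each. The deposited table holds linear intensities, 1 for each probe set on each array, that the authors derived by MAS5; the submitters' processing notes name Affymetrix Expression Console, version 1.0. The trimmed mean (2% off each end) was 500.003 on both arrays, as after scaling to a common target, and the values were not rescaled. Scanner files and detection calls were not used here. The number of arrays limits the precision.

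Gene names came from the platform annotation, which gave 1 symbol to 34945 probe sets that are not controls. Each gene was represented by 1 probe set, the one whose log2 intensity averaged highest over both arrays. The floor and the 2-fold call are those given above. The floored call was checked on simulated arrays with an assumed noise. Differences were planted only in probe sets whose mean log2 signal lay more than 2-fold above the floor. Rgs1 lies below that limit, so the check does not cover its bound. The members, gene lists and rules were chosen with earlier results of these data known. Named were all 8 members, up to 4 called genes per list by size of ratio, and Gnai2, Gnai3, Gnaq, Gnb1, Gna13, Ccr7, S1pr1 and Cxcr4. Other genes were named after their values were seen. The alternatives were 3 scalings, 3 floors and 2 ways of treating probe sets, and their effect is given in the closing section. Python 3.11.15 with numpy 2.4.6, pandas 2.3.3 and statsmodels 0.14.6 was used.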

Additional observations from a re-analysis of the deposited data

How the results depend on the processing

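The count of members called higher was 2 as reported and under 7 of the 8 alternatives. It was 3 with no floor, where Rgs14 gained a call at a log2 ratio of 1.08. When probe sets ending in _s_at, _x_at or _a_at were left out, genes with no other probe set kept theirs. Rgs3, Rgs14, Rgs16 and Rgs19 are such genes, so that alternative could not change their values. Rgs1 and Rgs2 stayed above 2-fold under every alternative run. The 2 ways of treating probe sets could not change the ratio of Rgs1, since its 1 probe set has none of these endings. Median scaling also left Rgs1 at 3.61. The count of members called lower, and of their probe sets called lower, was 0 after quantile normalization and 0 after loess, since Rgs10 fell short of 2-fold. With no floor 7 probe sets were called higher and 2 lower, against 4 and 1, because signals under the floor then give ratios. The median log2 ratio of the members was 0.75 for a floor at the 30th percentile and also for no floor, against 0.13, because Rgs14 and Rgs16 then pass Rgs19. It was 0.54 for a floor at the 70th percentile, where 5 members had a ratio. Among genes that are no members, leaving out _s_at, _x_at and _a_at probe sets gave log2 ratios of -0.20 for Ccr9 and -1.22 for Arhgef1. Averaging the probe sets gave -0.091 for Arhgef1. Each was opposite in sign to the value of the probe set used. No paired analysis was possible because each group holds 1 array. No replicate could be left out for the same reason. Signals under the floor limit what can be said of Rgs14, Rgs16 and Rgs18.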
